A study of Mus musculus with 6 samples.

Results

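The MHC class II presentation genes described here are 9 genes chosen by name: the classical chains H2-Aa, H2-Ab1 and H2-Eb1, the invariant chain Cd74, the peptide editors H2-DMa and H2-DMb1, their partners H2-Oa and H2-Ob, and the transactivator Ciita. All 9 were found among the 34245 genes of the RNA-seq table. RNA-seq was performed on 3 Dnmt3b+/- peripheral T-cell lymphomas (PTCL), separate tumors taken from lymph nodes of FVB mice at terminal disease. The mice carried a germline knockout of 1 Dnmt3b allele in all cells, and their ages are not given in the labels. The labels name no sorting of cells before RNA was isolated, so the RNA may include that of other cells of the node. These 3 tumors form 1 group and no control library was analysed here, so every value is a description without a test. Expression is given as FPKM, in which the reads of a gene are divided by the length of its exons and by all reads of its library. The depth behind these values was 30726570 reads for tumor 1, 18969988 for tumor 2 and 20770928 for tumor 3.

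MHC class II molecules are pairs of an alpha and a beta chain that show peptides from endosomes to CD4+ T cells. The invariant chain fills their groove until proteases degrade it, H2-DM then exchanges the remaining fragment for other peptides, and H2-O restrains H2-DM. B cells, dendritic cells and macrophages make these molecules constitutively or after interferon-gamma, whereas mouse T cells make little or none. Ciita binds no DNA itself and acts through the RFX complex, NF-Y and CREB on a shared promoter module.

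The class II genes were expressed in every tumor, and most were highest in tumor 1 and lowest in tumor 2. All 9 genes were at or above 1 FPKM in every tumor, as were 28.4% of all genes of the table. In tumor 1, 7 of the 9 genes had their highest FPKM, against 50.6% of the genes with a mean of at least 1 FPKM. In tumor 2, 6 of the 9 had their lowest FPKM, against 38.3% of those genes, and also 6 under either other scaling of the libraries, against 37% with median-of-ratios factors and 34.3% after rescaling FPKM to a sum of 1000000. The highest tumor was at least 2 times the lowest for 7 of the 9, against 34.4%, and tumor 1 was at least 2 times tumor 2 for 7 of the 9, against 15.1%. With median-of-ratios factors these counts were 5 of the 9, against 32.5%, and 4 of the 9 (H2-Aa, H2-Ab1, H2-Eb1 and H2-Ob), against 11%. With FPKM rescaled to sum to 1000000 both were 8 of the 9, against 39.4% and 19.3%. In the deposited FPKM, H2-DMb1 and H2-Oa were under the threshold, H2-DMb1 by little with a ratio of 1.998, and Ciita was just over it at 2.005. The counts describe single libraries of 3 tumors, and the members were not drawn at random. On the log2(FPKM + 0.1) scale the median difference of the 9 genes was 1.10 for tumor 1 minus tumor 2, 0.55 for tumor 1 minus tumor 3 and 0.70 for tumor 3 minus tumor 2. Over the 11191 genes with a mean of at least 1 FPKM the same medians were 0.17, 0.23 and -0.06. Relative to these, the class II genes differed by 0.93, 0.31 and 0.76. Fewer cells of a type and less RNA per cell cannot be told apart in these values.

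**Figure D1:**
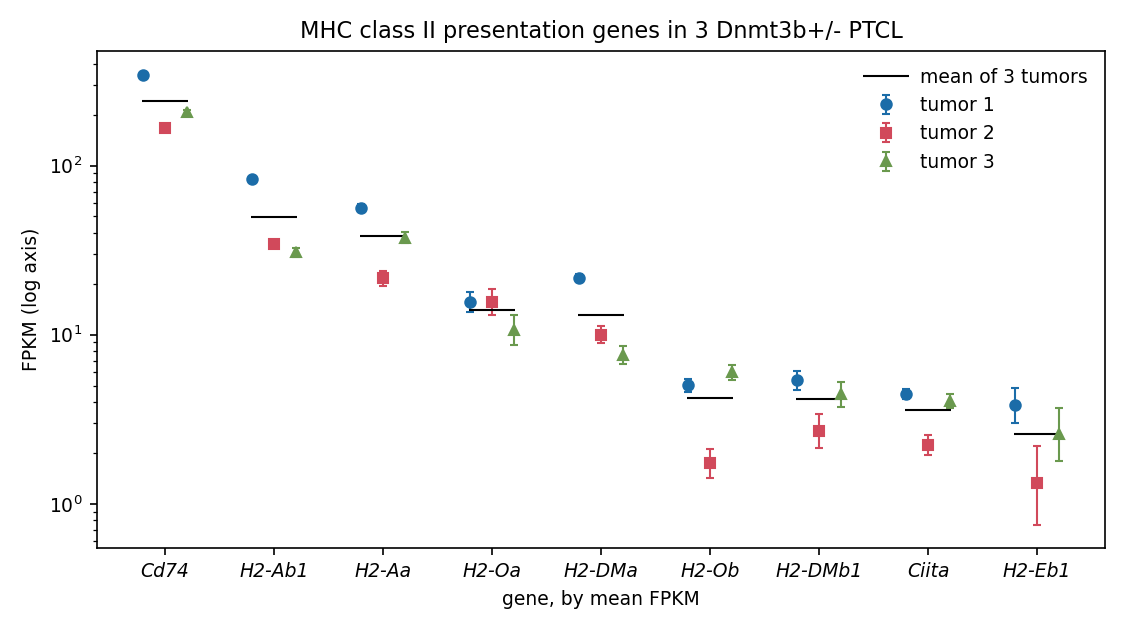
FPKM of the 9 class II presentation genes on a log axis, ordered by their mean. Points are the 3 tumors, black bars their mean, and whiskers 95% exact Poisson intervals that cover counting error only. Tumor 1 is above tumor 2 without overlap of the whiskers for 8 genes, H2-Oa being the exception.

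Cd74, the invariant chain that also chaperones class II pairs out of the endoplasmic reticulum, was by far the most abundant of the 9. Cd74 (ENSMUSG00000024610, chromosome 18 of mm10 from 60803848 to 60812646) reached 345, 167 and 207 FPKM in tumors 1, 2 and 3, a mean of 240 ± 93.1 (SD, n = 3). These levels put Cd74 at percentiles 99.9, 99.5 and 99.6 of all genes in the 3 tumors. Its level was 2.06 times higher in tumor 1 than in tumor 2, with intervals of 339 to 351 FPKM in tumor 1 and 163 to 172 in tumor 2. Of the summed FPKM of Cd74 and the 3 classical chains, Cd74 made up 70.6%, 74.5% and 74.6%, shares that lay close to each other.

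The classical chains of the A molecule came next. H2-Ab1, the beta chain (ENSMUSG00000073421, chromosome 17 from 34263209 to 34269418), reached 83.5, 34.4 and 30.7 FPKM, a mean of 49.5 ± 29.5 (SD, n = 3). H2-Aa, the alpha chain (ENSMUSG00000036594, chromosome 17 from 34282744 to 34287827), had 56.1, 21.6 and 37.5 FPKM, a mean of 38.4 ± 17.3 (SD, n = 3). Both chains were highest in tumor 1. H2-Aa was lowest in tumor 2, while for H2-Ab1 the Poisson intervals of tumors 2 and 3 overlapped (32.4 to 36.5 and 28.8 to 32.6 FPKM). FPKM of H2-Aa divided by that of H2-Ab1 was 0.672, 0.628 and 1.22 in the 3 tumors. In tumor 3 the alpha chain was therefore above the beta chain, and in the other tumors below it. The 2 means differed by 11.1 FPKM, less than the SD of H2-Ab1, and H2-Ab1 was above H2-Aa in 2 of the 3 tumors.

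H2-Eb1, the beta chain of the E molecule (ENSMUSG00000060586, chromosome 17 from 34305877 to 34316199), was the lowest of the 9 with 3.85, 1.34 and 2.60 FPKM, a mean of 2.60 ± 1.26 (SD, n = 3). H2-Ab1 had 21.7, 25.7 and 11.8 times the FPKM of H2-Eb1 in the 3 tumors. The values of H2-Eb1 rest on at least 70, 15 and 32 reads, so the interval of tumor 3, from 1.78 to 3.67 FPKM, overlapped those of both other tumors. H2-Eb1 shares sequence with its neighbor H2-Eb2, and reads that map to both can be lost to the mapping filter. H2-Eb2 itself had 2.40, 0.692 and 2.75 FPKM.

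The peptide editor H2-DM was uneven between its chains. H2-DMa, its alpha chain (ENSMUSG00000037649, chromosome 17 from 34135182 to 34139101), had 21.6, 10.02 and 7.57 FPKM, a mean of 13.1 ± 7.51 (SD, n = 3). H2-DMb1, one of its beta chains (ENSMUSG00000079547, chromosome 17 from 34153072 to 34160230), had 5.39, 2.70 and 4.44 FPKM, a mean of 4.18 ± 1.37 (SD, n = 3). H2-DMa was thus lowest in tumor 3 and H2-DMb1 in tumor 2, and their ratio was 4.01, 3.72 and 1.70. The near-identical copy H2-DMb2, not one of the 9, had 6.09, 2.65 and 5.66 FPKM, in the same order of tumors as H2-DMb1 except with median-of-ratios factors, where tumor 3 was highest. Reads shared by the 2 beta chain genes may have been lost, so the ratio of H2-DMa to its beta chains is uncertain.

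H2-O, which holds back H2-DM mainly in B cells, went different ways in its 2 chains. H2-Ob, the beta chain (ENSMUSG00000041538, chromosome 17 from 34238903 to 34245907), had 5.02, 1.74 and 6.001 FPKM, a mean of 4.25 ± 2.23 (SD, n = 3). Its range of 3.45-fold from tumor 3 to tumor 2 was the widest of the 9 genes. H2-Oa, the alpha chain (ENSMUSG00000024334, chromosome 17 from 34092340 to 34095234), had 15.6 FPKM in tumors 1 and 2 and 10.7 in tumor 3, a mean of 13.97 ± 2.87 (SD, n = 3). H2-Oa was the least variable of the 9, with a range of 1.47-fold and overlapping intervals in tumors 1 and 2. FPKM of H2-Oa divided by that of H2-Ob was 3.11, 8.998 and 1.78, a 5.06-fold spread for the chains of 1 molecule.

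Ciita, the transactivator of the class II promoters (ENSMUSG00000022504, chromosome 16 from 10488178 to 10527564), had 4.47, 2.23 and 4.06 FPKM, a mean of 3.58 ± 1.19 (SD, n = 3). Tumor 2 was lowest and apart from the others, while the intervals of tumor 1, 4.15 to 4.80 FPKM, and of tumor 3, 3.69 to 4.46 FPKM, overlapped. With median-of-ratios factors, tumor 3 was highest for Ciita. FPKM of H2-Aa divided by that of Ciita stayed between 9.23 and 12.6, and Cd74 divided by Ciita between 51.0 and 77.2. H2-Ab1 divided by Ciita was 18.7, 15.4 and 7.56.

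By mean FPKM the order was Cd74, H2-Ab1, H2-Aa, H2-Oa, H2-DMa, H2-Ob, H2-DMb1, Ciita and H2-Eb1. Cd74 over H2-Ab1, H2-Aa over H2-Oa and H2-DMa over H2-Ob were the neighbors that differed by more than the larger of their SDs, in the same direction in all 3 tumors. For the other neighbors the difference of the means was below the larger SD, though H2-DMb1 was above Ciita, and Ciita above H2-Eb1, in all 3 tumors. Across tumors, 5 of the 9 genes had the order 1, 3, 2 from highest to lowest (H2-Aa, H2-Eb1, H2-DMb1, Cd74 and Ciita), an order shown by 30.1% of the genes with a mean of at least 1 FPKM. H2-Ab1 and H2-DMa had the order 1, 2, 3, H2-Ob the order 3, 1, 2 and H2-Oa the order 2, 1, 3. By counting error alone, tumor 1 was above tumor 2 for 8 genes and above tumor 3 for 5, against 42.2% and 44% of the 10916 genes with a mean of at least 1 FPKM for which the least reads were found. Tumor 3 was above tumor 2 for 5 and below it for 2, against 24.6% and 31.4%. Tumor 1 was highest for 8 genes with FPKM rescaled to sum to 1000000, where H2-Oa turned to tumor 1, against 60.5% of the genes with a mean of at least 1 FPKM. With median-of-ratios factors, where Ciita turned to tumor 3, it was highest for 6, against 36.9%.

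**Figure D2:**
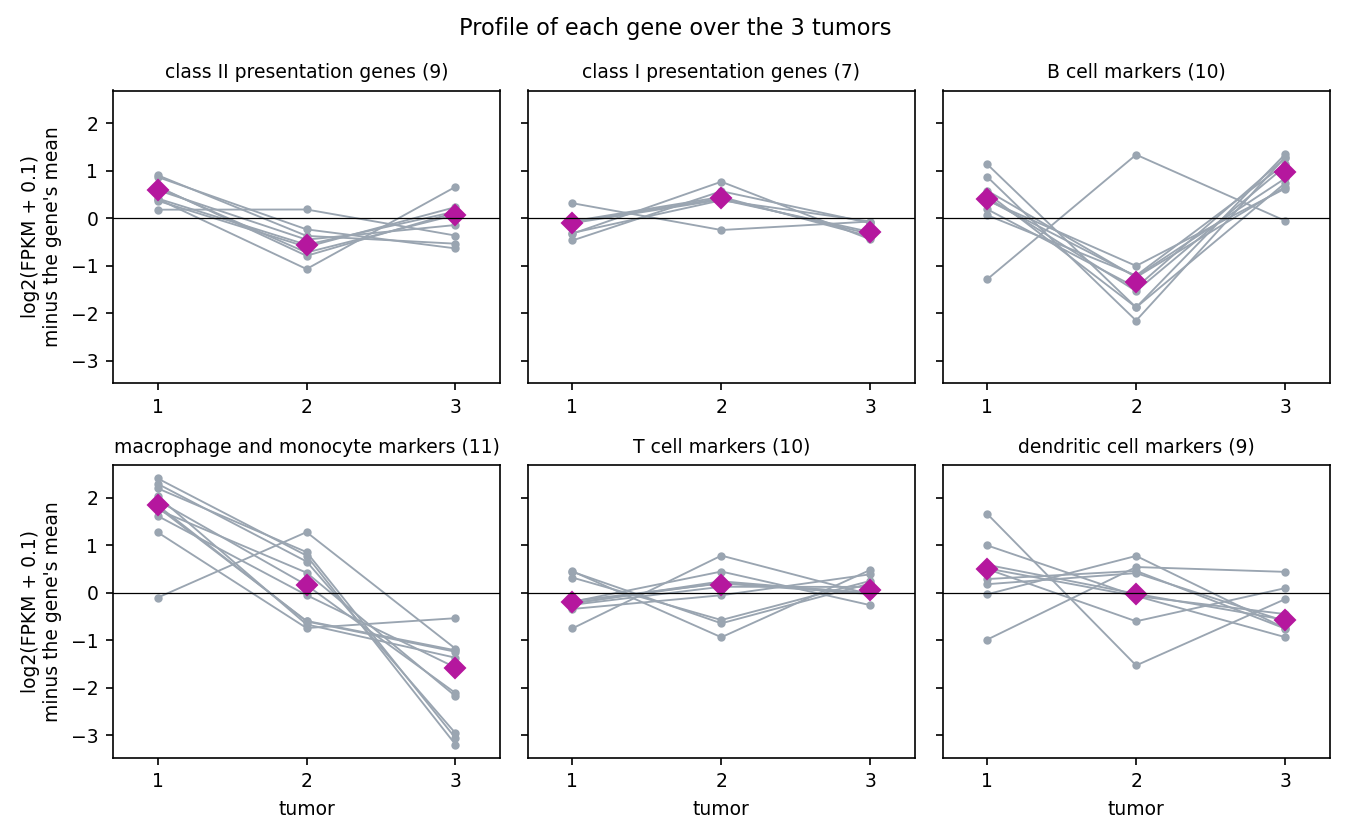
Log2(FPKM + 0.1) of each gene minus its own mean over the 3 tumors, for 6 lists with the number of genes in brackets. Grey lines join the values of 1 gene, diamonds are medians, and the tumors have no order. The class II genes have their lowest median in tumor 2, where the class I genes have their highest.

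Promoters of class II genes share a module of an X box, bound by the RFX complex, and a Y box, bound by NF-Y, and the reference promoters are shown because most of these genes were highest in tumor 1 and H2-Oa was not. RefSeq promoters of GRCm38.p6, 250 bases before to 50 bases after the start, were found for 6 of the 9 genes by symbol. H2-Ab1, Cd74 and Ciita had no entry. The windows of H2-DMa are those of starts 9664 and 12350 bases from the gene's start in the RNA-seq table and are not shown. The other 5 follow, 5′ to 3′ on the strand of the gene, with capitals for the pair of motifs found.
H2-Aa, chr17:34287774-34288073, minus strand: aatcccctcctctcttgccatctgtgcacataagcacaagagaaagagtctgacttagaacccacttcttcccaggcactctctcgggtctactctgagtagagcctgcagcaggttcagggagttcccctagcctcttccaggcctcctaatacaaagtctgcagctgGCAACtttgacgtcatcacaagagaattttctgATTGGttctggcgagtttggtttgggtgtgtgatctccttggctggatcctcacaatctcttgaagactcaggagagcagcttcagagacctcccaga
H2-Eb1, chr17:34305617-34305916, plus strand: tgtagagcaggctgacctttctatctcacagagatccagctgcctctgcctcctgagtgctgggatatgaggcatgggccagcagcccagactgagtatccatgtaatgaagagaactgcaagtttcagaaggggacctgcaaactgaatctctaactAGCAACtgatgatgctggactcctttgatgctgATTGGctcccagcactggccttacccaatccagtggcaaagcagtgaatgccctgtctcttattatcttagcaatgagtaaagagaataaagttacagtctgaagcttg
H2-DMb1, chr17:34152941-34153240, plus strand: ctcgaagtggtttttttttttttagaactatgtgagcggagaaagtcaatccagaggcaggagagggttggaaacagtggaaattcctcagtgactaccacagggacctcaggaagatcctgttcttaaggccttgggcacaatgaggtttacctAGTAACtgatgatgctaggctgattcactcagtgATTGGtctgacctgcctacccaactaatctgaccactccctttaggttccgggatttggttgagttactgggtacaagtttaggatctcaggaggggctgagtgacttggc
H2-Ob, chr17:34238655-34238954, plus strand: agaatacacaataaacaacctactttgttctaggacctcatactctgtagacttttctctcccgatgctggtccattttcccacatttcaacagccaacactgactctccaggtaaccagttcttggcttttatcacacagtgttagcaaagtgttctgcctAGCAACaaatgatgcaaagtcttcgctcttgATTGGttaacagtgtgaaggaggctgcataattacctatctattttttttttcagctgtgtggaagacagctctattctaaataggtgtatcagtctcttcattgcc
H2-Oa, chr17:34092129-34092428, plus strand: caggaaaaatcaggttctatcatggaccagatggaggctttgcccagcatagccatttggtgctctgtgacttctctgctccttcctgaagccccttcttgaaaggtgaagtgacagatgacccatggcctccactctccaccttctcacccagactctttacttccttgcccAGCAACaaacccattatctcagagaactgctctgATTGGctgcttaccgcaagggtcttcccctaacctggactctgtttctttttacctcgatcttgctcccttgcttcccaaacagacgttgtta
The pair searched was AGNAAC, a half-site of the X box, followed by ATTGG, the Y box, with 15 to 35 bases between them on either strand. H2-Eb1, H2-DMb1, H2-Ob and H2-Oa carried it, with 27, 28, 25 and 28 bases between the motifs. Of 32851 promoters in the table, 363 or 1.10% carried the pair. ATTGG alone, on either strand (CCAAT on the other), was in 37.4% and AGNAAC alone (GTTNCT on the other) in 48.1%. H2-Aa had no such pair, but it had GNAAC, the same half-site with its first letter left out, with 28 bases between it and ATTGG. That shorter pair was searched after the sequences were seen, contains the first pair, and was in 3.51% of all promoters. ATTGG began 43 to 61 bases before the start in the 5 promoters. H2-Oa, with the flattest profile, thus carried the same pair as H2-Eb1 and H2-Ob. H2-Eb2 also carried the AGNAAC pair. The windows of Tap1 and B2m held neither pair, nor did that of H2-DMb2, which is the window of a start 1942 bases from the gene's start in the RNA-seq table. The sequences are of the reference strain C57BL/6J and not of FVB, and a match is a description of letters only.

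The 7 class II genes of chromosome 17 lie within 224 kb, and most of the other expressed genes between them had their highest FPKM in tumor 2. The span from H2-Oa to H2-Eb1 was examined after the values were seen, and the other genes in it are named for their position. It held 17 genes, of which 8 besides these 7 had a mean of at least 1 FPKM. Of these 8, 7 were highest in tumor 2, against 33.7% of all genes with such a mean. With median-of-ratios factors the count was also 7, against 36.7%, and with FPKM rescaled to sum to 1000000 it was 5, against 30.7%, where the other 3 were highest in tumor 1. Brd2 (27.3 and 29.3 FPKM in tumors 1 and 2) and Gm15821 (49.1 and 49.8) were nearly level in the deposited FPKM. Psmb8 and Psmb9, subunits of the immunoproteasome, and Tap1 and Tap2, which pump peptides into the endoplasmic reticulum, all serve class I. The FPKM of these 4 genes in tumor 1 was 0.540 to 0.748 times that in tumor 2. For H2-Ob, H2-Ab1, H2-Aa and H2-Eb1, the first of which starts 35.4 kb from the start of Tap2, the same ratio was 2.43 to 2.89. H2-DMb2 was the gene of the 8 that had its highest deposited FPKM in tumor 1, with 2.30 times that of tumor 2, and it had the order 1, 3, 2 of H2-Aa. Gm20496 overlaps Psmb8 and Tap2, and Gm15821 lies within Tap2, both on the opposite strand, so their values cannot be told apart from those of their partners if strand was not used in counting.

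**Figure D3:**
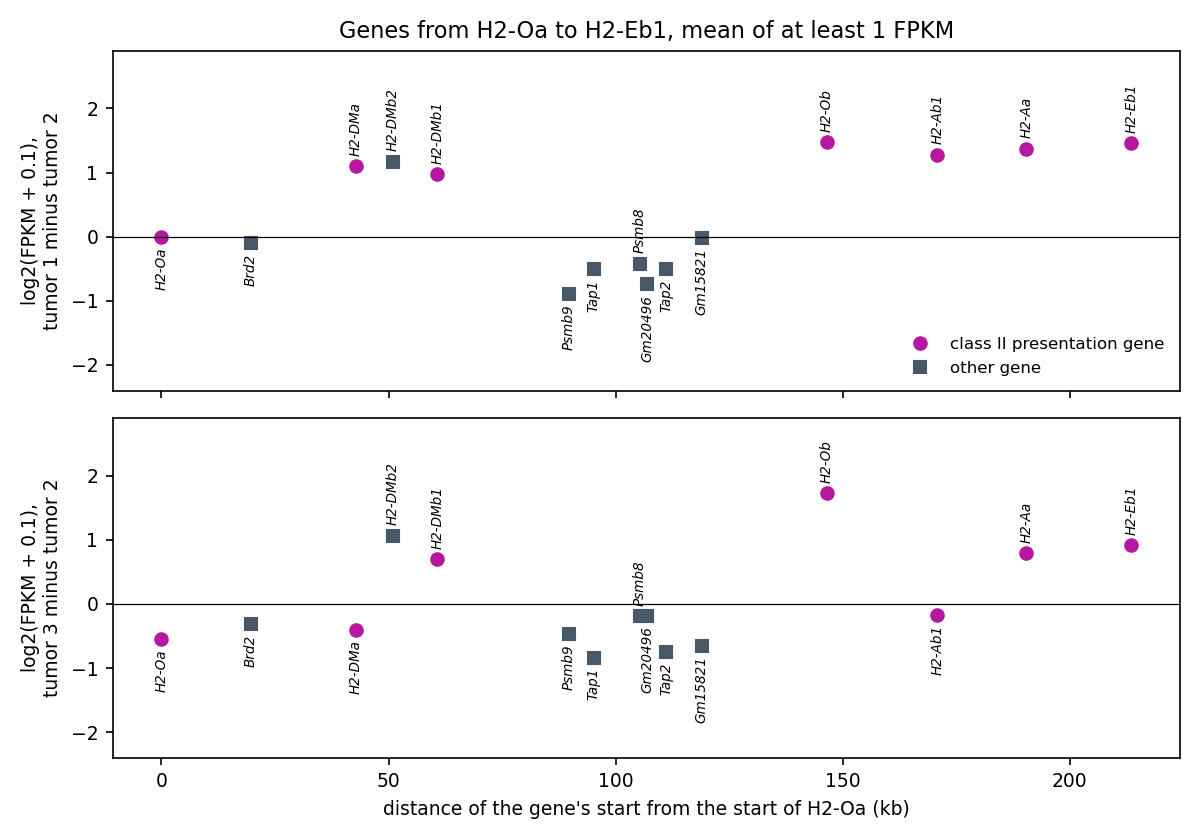
Difference of log2(FPKM + 0.1) between tumors for the genes from H2-Oa to H2-Eb1 with a mean of at least 1 FPKM, against the distance of each gene's start from that of H2-Oa in kb. Upper panel, tumor 1 minus tumor 2, and lower panel, tumor 3 minus tumor 2. Circles are class II presentation genes and squares other genes. The block from Psmb9 to Tap2 lies below 0 in both panels, between class II genes of which 6 of 7 lie above 0 in the upper panel and 4 of 7 in the lower.

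The class I presentation genes, Tap1 and Tap2 among them, also differed from class II in tumor 2. Of 7 class I genes, 6 were highest in tumor 2, in the deposited FPKM and under both other scalings. The shares of the genes with a mean of at least 1 FPKM were 33.7% as deposited, 30.7% rescaled and 36.7% with median-of-ratios factors. H2-K1, a class I heavy chain, had 231, 373 and 273 FPKM, and H2-D1, another, had 603, 1238 and 777. Nlrc5, which acts on class I promoters as Ciita does on class II, had 32.0, 68.3 and 29.4 FPKM. Nlrc5 and Ciita therefore differed most in tumor 2, where Nlrc5 had 30.7 times the FPKM of Ciita against 7.16 and 7.25 times in tumors 1 and 3. B2m, the light chain of class I, was the exception with 2327, 1573 and 1781 FPKM. The median difference of the 7 genes for tumor 1 minus tumor 2 was -0.51 on the log2(FPKM + 0.1) scale, against 1.10 for class II.

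Genes that act upstream of Ciita did not share 1 order. Of the 11, tumor 2 had the highest FPKM for 5, tumor 1 for 4 and tumor 3 for 2. With FPKM rescaled to sum to 1000000, 4 were highest in tumor 2 and 5 in tumor 1. Of the genes with a mean of at least 1 FPKM, 33.7% were highest in tumor 2 and 50.6% in tumor 1. After rescaling these shares were 30.7% and 60.5%. As deposited, 7 of the 11 had a range of 2-fold or more, against 34.4% of the genes with a mean of at least 1 FPKM. Ifng, the cytokine that induces Ciita in many cell types, had 8.49 FPKM in tumor 1 and 1.10 and 1.12 in tumors 2 and 3. Those low values rest on 27 and 30 reads. Ifngr2, a chain of its receptor, was also highest in tumor 1 with 5.54, 1.05 and 1.09 FPKM. The other chain Ifngr1, with 64.1, 182 and 72.3 FPKM, was highest in tumor 2. The same was true of the kinase Jak2 (17.9, 27.8 and 17.2 FPKM) and the factor Irf1 (50.4, 76.5 and 57.0 FPKM), which act in the response to interferon-gamma. The kinase Jak1, of the same response, was highest in tumor 3 with 64.3, 117 and 128 FPKM. Tumor 2, with the lowest Ciita, therefore had the highest Jak2 and Irf1, and tumor 1 the highest Ifng. Among the lineage factors, Pax5, a B cell factor, had 1.75, 0.506 and 2.43 FPKM, and Irf4 had 3.57, 0.312 and 3.25, both lowest in tumor 2. Irf8, a factor of B cells, macrophages and dendritic cells, was highest there with 7.58, 12.3 and 5.38 FPKM. Spi1, a factor of macrophages and B cells, had 5.87, 2.17 and 1.43 FPKM. Prdm1, a repressor of Ciita in plasma cells, varied little with 3.07, 3.10 and 2.64 FPKM.

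Of the 7 factors that hold Ciita at class II promoters, none had a range of 2-fold. Such a range was shown by 34.4% of the genes with a mean of at least 1 FPKM. All 7 factors were above 1 FPKM in every tumor, against 28.4% of all genes at or above it. Rfx5, the DNA-binding subunit of the RFX complex, had 4.84, 8.17 and 6.24 FPKM and was highest in tumor 2. Rfxank had 5.54, 5.16 and 7.61 FPKM and Rfxap 2.89, 3.39 and 3.18. The NF-Y subunits Nfya, Nfyb and Nfyc had means of 6.70 ± 0.481, 5.38 ± 0.651 and 10.1 ± 1.07 FPKM (SD, n = 3). Creb1 had 6.45, 3.66 and 5.29 FPKM. As deposited, Creb1, Nfya and Nfyc had the order 1, 3, 2 of Ciita, or 3 of the 7, against the 30.1% given above. Nfya and Nfyc left this order under both other scalings, and Ciita with median-of-ratios factors. Tumor 2 was lowest for 4 of the 7 as deposited, against 38.3% of the genes with a mean of at least 1 FPKM. With FPKM rescaled to sum to 1000000 it was lowest for 2, against 34.3%. Tumor 1 was highest for 4 as deposited, against 50.6%, and for 2 with median-of-ratios factors, against 36.9%.

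**Figure D4:**
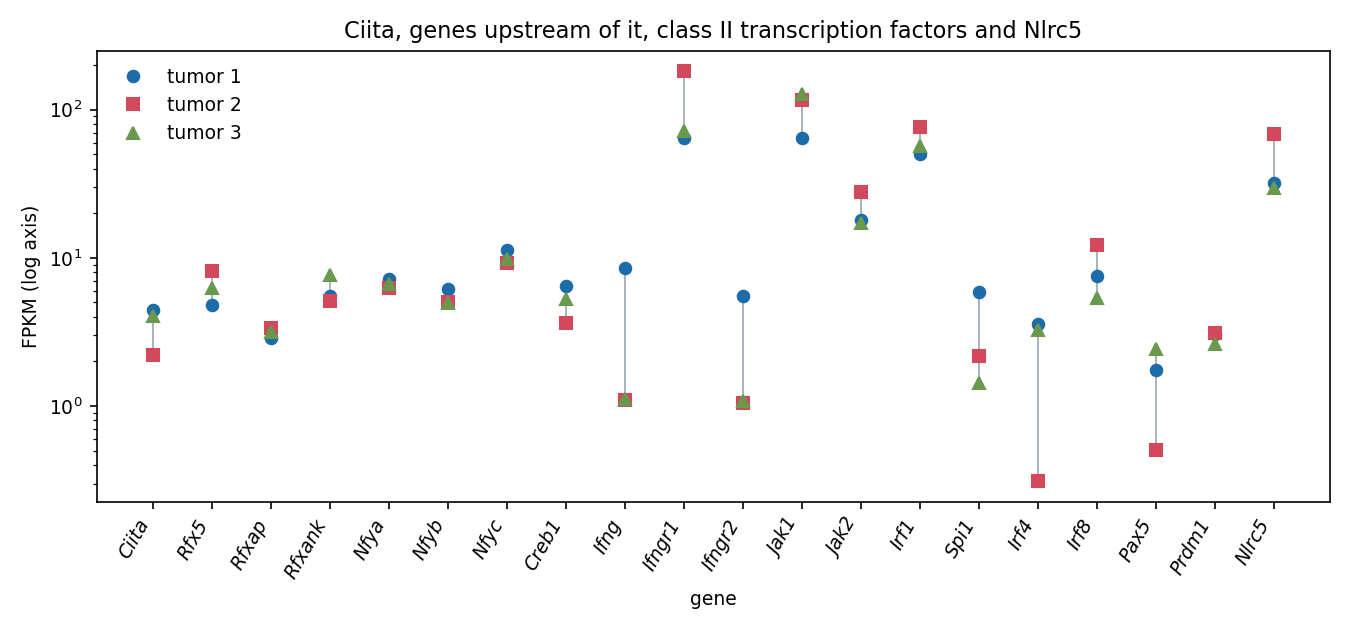
FPKM on a log axis of Ciita, the 7 class II transcription factors, the 11 genes upstream of Ciita and Nlrc5 in the 3 tumors. Grey lines span the lowest to the highest tumor. Ciita is lowest in tumor 2, where Ifngr1, Jak2, Irf1 and Nlrc5 are highest.

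Endosomal enzymes that prepare peptides and degrade the invariant chain were highest in tumor 1 for 6 of 7, against 50.6% of the genes with a mean of at least 1 FPKM. The count was also 6 with FPKM rescaled to sum to 1000000, against 60.5%, and with median-of-ratios factors, against 36.9%. Ifi30, the reductase that opens disulfide bonds of antigens, had 54.2, 20.7 and 46.1 FPKM, in the order of Cd74. Ctss, the protease that trims the invariant chain in B cells and dendritic cells, had 163, 111 and 103 FPKM. Lgmn had 16.2, 13.9 and 2.07 FPKM and Ctsl 5.65, 2.65 and 0.341, both lowest in tumor 3, as were 10 of the 11 macrophage markers. The share of all genes lowest in tumor 3 was not counted. Ctsd was the exception, highest in tumor 2 with 156, 255 and 160 FPKM. The ligases and partners of class II were mixed, with 4 of 8 highest in tumor 1 (5 with FPKM rescaled to sum to 1000000) and 2 in tumor 2. The shares of the genes with a mean of at least 1 FPKM were 50.6% (60.5% rescaled) and 33.7%. March1, the ligase that removes class II from the surface, had 2.76, 0.546 and 1.11 FPKM, and Cd83, which opposes it, 4.43, 3.32 and 4.60. Mif, a ligand of CD74, had 102, 244 and 143 FPKM, and Cxcr4, a partner receptor of CD74, 18.6, 62.0 and 25.7. Both were thus highest in tumor 2, where Cd74 was lowest. Cd44, another partner, had 5.08, 0.895 and 6.89 FPKM. Lag3, a class II receptor on T cells, had 9.86, 4.95 and 2.01 FPKM. Of the costimulatory genes, Cd80, Cd86 and Cd40 were each highest in tumor 1, with 1.42, 3.48 and 2.88 FPKM, against the share of 50.6%. With median-of-ratios factors 2 of the 3 were, against 36.9%.

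T cell markers were abundant in every tumor, as the label of the tissue says, with all 10 above 1 FPKM and a summed FPKM of 1591, 1470 and 1771. Cd8b1 was the most abundant of them by mean, at 27.3%, 11.3% and 25.0% of that sum. Tumor 2 was highest for 6 of the 10, against 33.7% of the genes with a mean of at least 1 FPKM, and tumors 1 and 3 for 2 each. Tumors 1, 2 and 3 were highest for 3, 6 and 1 with FPKM rescaled to sum to 1000000. The same counts were 1, 5 and 4 with median-of-ratios factors. Cd8a (259, 122 and 218 FPKM), Cd8b1 (435, 166 and 443) and Trbc2 (195, 105 and 186) were lowest in tumor 2, as were most class II genes. Of the rest, 6 were lowest in tumor 1 and 1 in tumor 3, among them Trbc1 with 98.2, 284 and 161 FPKM. The distance from the class II median profile was 0.123 for Cd8a and 1.10 for Trbc1, with a median of 0.634 over the 10. The 4 CD4 T cell markers summed to 39.0, 8.12 and 16.4 FPKM, with Cd4 itself, the receptor that binds class II, at 28.4, 4.28 and 8.22. The summed classical class II genes and Cd74 were 488, 225 and 278 FPKM, or 0.307, 0.153 and 0.157 times the T cell sum.

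Markers of cells that make class II were present in all 3 tumors, and few had the order 1, 3, 2 of 5 class II genes. That order was shown by 1 of the 10 B cell, 1 of the 11 macrophage and 2 of the 9 dendritic cell markers. Of the genes with a mean of at least 1 FPKM, 30.1% had it. The median distances of these marker lists from the class II median profile were 0.858, 1.34 and 0.721. For T cell, neutrophil and CD4 T cell markers they were 0.634, 0.604 and 0.565. Each of these medians was above 0.550, the distance within which 57.3% of the other genes with a mean of at least 1 FPKM lay. The 10 B cell markers had reads in every tumor, all 10 had a range of 2-fold or more, and 9 were lowest in tumor 2. Of the genes with a mean of at least 1 FPKM, 34.4% had such a range and 38.3% were lowest in tumor 2. Of the 10, 8 were highest in tumor 3, or 7 with FPKM rescaled to sum to 1000000. Of all genes with such a mean, 50.6% were highest in tumor 1, 33.7% in tumor 2 and the rest in tumor 3. After rescaling these shares were 60.5% and 30.7%, again with the rest in tumor 3. The marker sum was 68.7, 51.5 and 125 FPKM. It was led by mean by Cd79a, part of the B cell receptor, with 23.1, 7.31 and 49.0 FPKM. Cd22 went against the others with 36.5 FPKM in tumor 2, where it led the sum, and without it, a choice made after its value was seen, the sum in tumor 2 was 15.03. H2-Ob and H2-Eb2 had the order 3, 1, 2 of most B cell markers, though H2-Eb2 turned to tumor 1 with FPKM rescaled to sum to 1000000. Of the 6 plasma cell markers, 3 had this order, Mzb1 among them. Genes of other lists, such as Cd8b1, Cd44, Cd83 and Rfxank, had it too. FPKM of H2-Ob divided by that of Cd79a was 0.217, 0.238 and 0.123, and Cd74 divided by Cd79a was 14.9, 22.9 and 4.23.

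The 11 macrophage and monocyte markers had another order. Of these, 10 were highest in tumor 1 and 10 lowest in tumor 3, under each of the scalings. Tumor 1 was highest for 50.6% of the genes with a mean of at least 1 FPKM, as deposited. Their sum was 443, 149 and 37.3 FPKM, led by mean by Lyz2, a lysozyme, with 215, 33.1 and 20.3. C1qa, a complement chain of tissue macrophages, had 74.5, 24.1 and 1.44 FPKM, and Csf1r, the receptor for their growth factor, 20.7, 3.72 and 2.36. Cd68 was the exception, highest in tumor 2 with 51.2 FPKM, where it led the sum. H2-Ab1 and H2-DMa shared the order 1, 2, 3 of most of these markers, with a smaller range of 2.72-fold and 2.86-fold against 51.9-fold for C1qa. The summed classical genes and Cd74 were 1.10, 1.504 and 7.44 times the macrophage sum, and 7.11, 4.36 and 2.22 times the B cell sum. Without Cd22 the latter were 7.77, 14.96 and 2.49, so the highest ratio turned from tumor 1 to tumor 2. The part of either cell type in the class II levels was not tested.

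The 9 dendritic cell markers summed to 83.5, 41.8 and 58.7 FPKM, of which Ccr7, a homing receptor that lymphocytes also express, made up 85.2%, 79.4% and 91.7%. Ccr7 had 71.2, 33.2 and 53.8 FPKM, and its profile was the nearest to the class II median among the listed genes, at a distance of 0.0603. Without Ccr7 the other 8 summed to 12.4, 8.60 and 4.87 FPKM, a split made after the values were seen. Of these 8, 4 were highest in tumor 1 and 4 in tumor 2 (Zbtb46, Clec9a, Cd209a and Batf3), 6 were lowest in tumor 3 and 1 in tumor 2. That 1 was Siglech, of plasmacytoid dendritic cells, with 2.52, 0.187 and 0.655 FPKM. Of the genes with a mean of at least 1 FPKM, 50.6% were highest in tumor 1 and 33.7% in tumor 2. Of the same genes, 38.3% were lowest in tumor 2, and the share lowest in tumor 3 was not counted. Xcr1 and Clec9a, which define cross-presenting dendritic cells, had 2.29, 1.47 and 0.973 FPKM and 1.27, 2.29 and 0.731 FPKM. The 6 plasma cell markers, from cells that shut Ciita down, summed to 867, 200 and 221 FPKM, mostly from Jchain, with 814, 185 and 179. Among other cells of the node, endothelium and stroma markers summed to 18.1, 45.2 and 5.44 FPKM, led by mean by Pecam1. The 6 neutrophil markers summed to 36.2, 1.42 and 15.4, led by S100a9, with no read of Elane in any tumor and none of Ly6g or Mpo in tumors 2 and 3. The 4 epithelium markers summed to 14.2, 2.75 and 0.913, of which Cdh1 made up 96.2% in tumor 1. Epcam, Krt8 and Krt18 were each highest in tumor 2. Krt8 and Krt18 were below 1 FPKM in every tumor, so their order is uncertain. Krt18 rests on at least 1, 3 and 1 reads, and the reads of Krt8 could not be recovered. Summed FPKM was lowest in tumor 2 for 6 of the 9 marker lists, and for 5 with median-of-ratios factors. Single abundant genes weigh on such sums. Without Ccr7 the dendritic cell sum was lowest in tumor 3. The deposited T cell sum was lowest in tumor 2, although 6 of the 10 T cell markers were highest there.

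**Figure D5:**
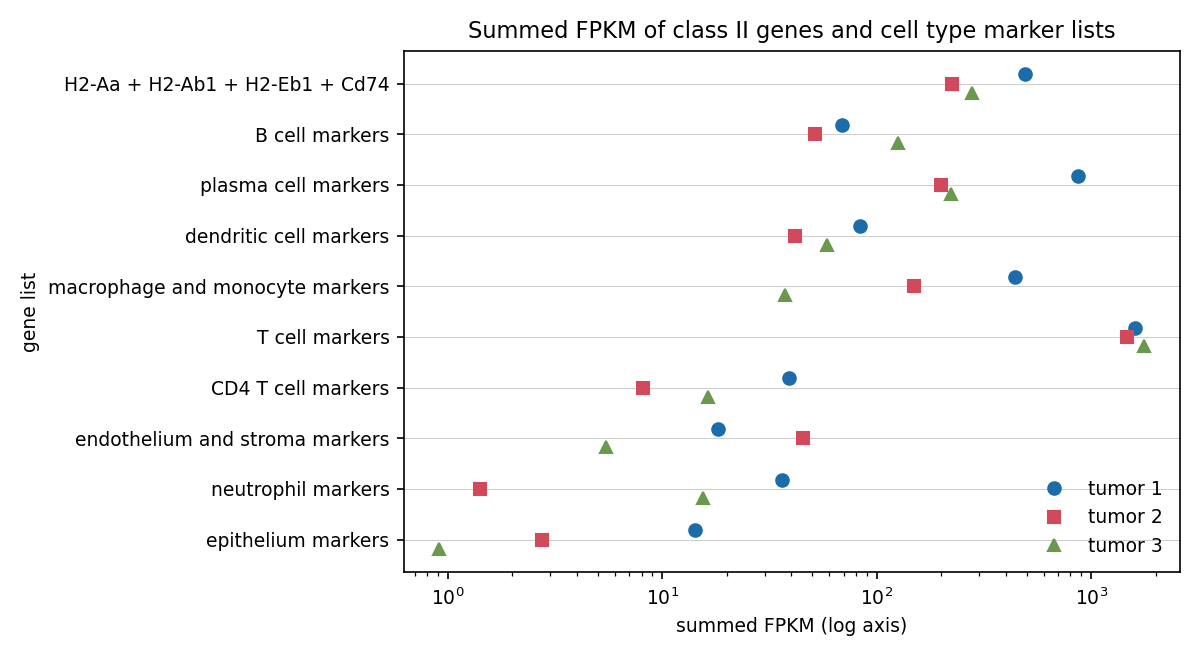
Summed FPKM on a log axis of H2-Aa, H2-Ab1, H2-Eb1 and Cd74 together and of the 9 marker lists, with a point for each tumor. The class II sum was highest in tumor 1 at 488, the B cell sum was highest in tumor 3 at 125 and the macrophage sum in tumor 1 at 443.

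The genes whose profile was most like the median of the 9 class II genes were sought among 11182 other genes with a mean of at least 1 FPKM. Likeness was the root mean square difference of log2(FPKM + 0.1), less the gene's mean, over the 3 tumors. The 10 nearest were Rab5a, Glo1, Eif2b3, Zfp959, Tpp2, Gm15522, Thap12, Ythdc2, Stag1 and Eps15, with distances from 0.0354 to 0.0385. Rab5a, a GTPase of early endosomes, had 15.8, 7.13 and 11.1 FPKM. Within a distance of 0.1 lay 311 genes, or 2.78% of those compared, and none of the 9 class II genes. The class II genes themselves were 0.101 (H2-Aa) to 0.550 (H2-Oa) from their median, and 57.3% of the other genes were as near to it as H2-Oa. A profile over 3 tumors is therefore shared by many genes, and with a pseudocount of 1 FPKM none of the 10 nearest was among the 10 found.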

How the data were processed

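RNA-seq (paired-end, 150 bp) of 3 Dnmt3b+/- PTCL was analysed. Per the submitters' processing notes and the study's methods, reads were aligned to mm10 with STAR and quantified in SeqMonk at a mapping quality of at least 50, and the authors deposited FPKM, not pooled over tumors. DESeq2 is named for the authors' comparisons and was not used here. WGBS samples, control libraries and H2-Ea-ps were not analysed here. FVB and the reference strain C57BL/6J differ in class II haplotype, and the effect of this on mapping was not tested.

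Symbols turned into dates (26) were restored by Ensembl ID, and the gene with the highest mean was used for a repeated symbol. Depths were taken from genes with no read, whose FPKM equals 0.9 of a read. With GENCODE M21 exon lengths, values were whole reads (within 0.02) in all 3 tumors for 98.5% of genes on chromosomes other than 14 to 19 and 59.2% on those, and for none of the 9 members. For such genes the authors' exon length was unknown, and the smallest length with whole reads in all 3 tumors gave the least number of reads. The 95% exact Poisson intervals rest on these, are the widest possible, and cover counting error only. Differences used log2(FPKM + 0.1), which understates changes of low genes.

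The members and lists were chosen with earlier results of these data known. Named genes are the 9 members, the 10 nearest-profile genes and all genes of the pathway and cell type marker lists, of which 1 is not reported here. Genes named otherwise were chosen after their values were seen. The alternatives were 2 other scalings (FPKM summed to 1000000 and median-of-ratios factors), pseudocounts of 1 and 0.01, other thresholds and filters, summed repeated symbols, another reference profile, and each tumor left out. Counts by tumor under the 2 scalings, shares of all genes beside them and beside the Poisson intervals, and ratios without Cd22 were added after the values were seen. Steps were tested on simulated tables. Analysis was in Python 3.11 (NumPy 2.4.6, pandas 2.3.3, SciPy 1.17.1) and figures in matplotlib 3.10.9.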

Additional observations from a re-analysis of the deposited data

How the results depend on the processing

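No paired analysis was possible because the results come from no test and from 1 group. The median log2 differences kept their sign under both scalings and both pseudocounts, from 0.93 to 1.24 for tumor 1 minus tumor 2, from 0.32 to 0.80 for tumor 1 minus tumor 3 and from 0.56 to 0.76 for tumor 3 minus tumor 2. Rescaling FPKM to sum to 1000000 shifted the median of all genes by 0.13 log2 for tumor 1 minus tumor 2 and by 0.25 for tumor 1 minus tumor 3, and median-of-ratios factors shifted them by -0.17 and -0.23. Because rescaling multiplies every value by 4.47 to 5.30, the median over the 9 genes of their mean FPKM went from 13.1 to 65.6, and the means of all 9 genes moved beyond their SD. That median lay between 8.80 (without tumor 1) and 15.6 with a tumor left out. At a threshold of 10 FPKM 4 of the 9 genes were above it in every tumor, against 7.46% of all genes, and at 3-fold 1 gene, H2-Ob, remained at or above it. Without tumors 1, 2 and 3 in turn, 1, 2 and 7 genes were at 2-fold or more, against 15.8%, 17.6% and 26.2% of genes with a mean of at least 1 FPKM, and 6, 8 and 8 shared the commonest order of the other tumors, against 45.3%, 67.9% and 58.6%. Fewer tumors can only narrow a range. Of all genes with a mean of at least 1 FPKM, 16.5% were at 3-fold; with no filter, 29.5% of genes were at 2-fold. Of the 10 nearest-profile genes, 5 were found again with FPKM rescaled, 5 with a pseudocount of 0.01, 0 with a pseudocount of 1, 0 with the profile of H2-Aa, H2-Ab1, H2-Eb1 and Cd74, and 0 with any tumor left out. The cause was not tested. H2-Eb1 had the smallest least number of reads, with at least 15 in tumor 2. Because these numbers are lower bounds, they do not rank the genes by their true reads.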
